A study of Mus musculus with 6 samples.

Results

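The ER chaperone and unfolded protein response module is a set of 36 named genes that covers chaperones, oxidoreductases, stress sensors and the degradation machinery of the endoplasmic reticulum (ER). Its members were chosen by gene symbol, with earlier results of these data known. All 36 were found among the 55416 genes of the deposited table. They were followed in crypt-derived organoids, which are small three-dimensional cultures grown from the stem cell compartment of the mouse duodenum and jejunum. Organoids from 3 WT C57BL/6 mice were kept for 5 days with low-density lipoprotein (LDL, 50 μg/ml) or with PBS as the control, and each mouse gave 1 culture to each treatment, so that there were 3 LDL-treated and 3 PBS-treated libraries. RNA came from whole cultures of mixed cell types, so fewer cells of a type and less RNA per cell cannot be told apart. The paper reports that LDL lowered the organoid-forming rate and raised the share of round, fetal-like spheroids. It describes such spheroids as mostly proliferating stem cells without differentiated cells. The comparison asks how LDL changes the transcriptome of the organoids. The labels give neither age nor sex of these animals. The animal identifier and the genotype label of mouse 3 do not plainly match, and the counts of called members are therefore also given without this mouse.

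Secreted and membrane proteins enter the ER through a translocon, are folded by chaperones and joined by disulfide bonds, and are sent back to the cytosol for degradation when folding fails. When unfolded proteins accumulate, 3 sensors in the ER membrane respond. IRE1 (encoded by *Ern1* and *Ern2*) splices the *Xbp1* mRNA, ATF6 is cut to release a transcription factor, and PERK (*Eif2ak3*) slows translation. In the intestine this response is best known from goblet and Paneth cells, whose secretory load is high. Splicing of *Xbp1*, cleavage of ATF6 and phosphorylation by PERK are not visible in counts per gene.

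The libraries held between 22061545 and 31073360 reads on genes. The LDL-treated library of mouse 1 stood apart, with 62.1% of reads on nuclear protein-coding genes against 70.9% to 75.6% in the other libraries and with reads on 35781 genes against 29285 to 32751. Epithelial identity was checked on 8 markers, all detected in each library, among which *Epcam* had normalized counts of 20049 to 24334. The sum over these 8 genes was 75325 to 80866 with PBS and 86426 to 109640 with LDL. Summed normalized counts were 101 to 178 for 6 immune markers in all libraries, and for 8 stromal markers they were 180.2 to 210.3 with PBS and 106 to 168 with LDL.

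Promoter sequences are shown first because several members are textbook targets of the unfolded protein response through the ER stress response element (ERSE), where ATF6 and XBP1 bind together with NF-Y. Windows from 250 bases before to 50 bases after the start site were available from RefSeq (GRCm38.p6) for 30 of the 36 members. The motif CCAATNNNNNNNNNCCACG, searched on both strands, was found in 10 of these 30 genes (33.3%) and in 0.137% of all 27025 genes with a window. The related ERSE-II (ATTGG, 1 free base, CCACG), searched in the same way, was found in 2 members (6.67%) and in 0.0444% of all genes, and the UPRE, TGACGTGG, was found in 0 members and in 0.714% of all genes. No member held both kinds of element, and the 2 ERSE matches of *Hsp90b1* shared no base. Below, the stretch around the match is given 5′ to 3′ on the strand of the gene, with the fixed letters of the motif in capitals. It is given for 4 chaperone genes and the scaffold gene *Herpud1*, which were picked by their differences between the treatments.
Hspa5: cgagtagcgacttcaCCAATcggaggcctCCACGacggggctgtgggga
Calr: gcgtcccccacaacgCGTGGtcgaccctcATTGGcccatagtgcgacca
Creld2: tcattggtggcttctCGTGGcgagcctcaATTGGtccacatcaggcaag
Dnajb11: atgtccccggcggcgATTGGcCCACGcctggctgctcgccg
Herpud1: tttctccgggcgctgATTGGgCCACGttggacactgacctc
In GRCm38.p6 these stretches lie at chr2:34772010-34772058 on the plus strand (*Hspa5*), chr8:84847060-84847108 on the minus strand (*Calr*), chr15:88819505-88819553 on the plus strand (*Creld2*), chr16:22857837-22857877 on the plus strand (*Dnajb11*) and chr8:94386362-94386402 on the plus strand (*Herpud1*). The element of *Hspa5* covers bases -65 to -47 from the start site and that of *Herpud1* bases -52 to -42, whereas in *Dnajb11* it lies after the start site, at bases 8 to 18. The other members with an ERSE were *Canx*, *Derl3*, *Dnajc3*, *Ero1b*, *Hsp90b1*, *Pdia6* and *Syvn1*. Their log2 fold changes with LDL were -0.0070, -0.28, 0.024, 0.11, 0.22, 0.050 and 0.23. *Xbp1*, *Edem2*, *Sec61b* and *Selenos* had a window without any of these motifs. Whether motif and difference go together was not tested. A match describes letters in these windows and is not evidence of binding.

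Members differed in both directions between the treatments, each by an estimate below 1.5-fold. The median absolute log2 fold change was 0.17 over the module, 0.20 over all genes and 0.10 over 153 other genes of the ER. Luminal chaperone genes, led by *Creld2*, *Calr*, *Hspa5* and *Hyou1*, had higher means with LDL by log2 differences of 0.30 to 0.43, while *Xbp1*, *Edem2*, *Herpud1*, *Sec61b* and *Selenos* had lower means by log2 differences of -0.41 to -0.34. A gene was called where limma gave an adjusted p-value below 0.05 together with a difference of more than 1.5-fold. This held for 0 of the 36 members in either direction, against 0.878% of all 18459 genes tested for higher and 0.395% for lower. Without the fold limit it also held for 0 members (0.932% and 0.412% of all genes). At an unadjusted p-value under 0.05 and any size of change, limma counted 6 members higher (9.96% of all genes) and 3 lower (9.73% of all genes). DESeq2 and edgeR, each run with and without the mouse as a block, likewise called 0 members over 1.5-fold. With the block, DESeq2 called 5.31% of all genes higher and 2.77% lower at that fold, and edgeR 6.34% and 3.19%. Without it, DESeq2 called 4.58% higher and 1.89% lower, and edgeR 1.01% and 0.379%.

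A model with the mouse as a block, which compares the cultures of the same animal, also called 0 members over 1.5-fold (5.68% of all genes were called higher and 3.46% lower). At an unadjusted p-value under 0.05 it counted 8 members higher (14.4% of all genes) and 5 lower (15.7% of all genes). At any size of change, 3 members passed an adjusted p-value of 0.05 as higher with LDL in that model, namely *Creld2*, *Dnajb11* and *Hyou1* (8.27% of all genes), and 2 as lower, namely *Xbp1* and *Selenos* (7.45% of all genes). Shares of 3 and 2 in 36 are near the background. DESeq2 with the block passed 4 higher (*Calr*, *Creld2*, *Hspa5* and *Hyou1*; 7.63% of all genes) and 2 lower (*Herpud1* and *Xbp1*; 6.19%), and edgeR with the block passed 3 higher (*Creld2*, *Dnajb11* and *Hyou1*; 9.39%) and 3 lower (*Herpud1*, *Selenos* and *Xbp1*; 7.35%). Scaling changed the split between the directions: upper-quartile scaling gave 1 higher and 3 lower (7.96% and 9.39% of all genes), and quantile normalization gave 5 higher and 2 lower (7.80% and 7.76%). Without mouse 1 the limma counts were 0 and 1 (4.68% and 3.02% of all genes), without mouse 2 they were 8 and 6 (14.2% and 16.2%), and without mouse 3 they were 0 and 0 (277 and 82 genes of the 18469 tested).

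All 36 passed the filter of a mean normalized count of 10, and the lowest, *Derl3*, had a mean of 39.9. For 26 of the 36 members the 95% confidence interval of the difference lay within 1.5-fold in both directions, which held for 41.7% of all genes tested, and with the mouse block this number was 29 (50.1% of all genes). The estimated change was below 1.5-fold for each of the 36 members, whereas it was above 1.5-fold for 14.9% of all genes. Members were measured more precisely than most genes, with a median SE of 0.11 against 0.18 over all genes, which bears on both comparisons. The median log2 fold change was 0.079 over the module and -0.016 over all genes, and 25 members had an estimate above 0 (47.6% of all genes) and 11 below (52.4%). The treatments were fully separated in 14 members (24.2% of all genes), of which 11 had all LDL values above all PBS values (11.9%) and 3 had them below (12.3%). In 17 members the LDL culture of every mouse was above its PBS culture (24.2% of all genes), and in 4 it was below in every mouse (26.8%).

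**Figure D1:**
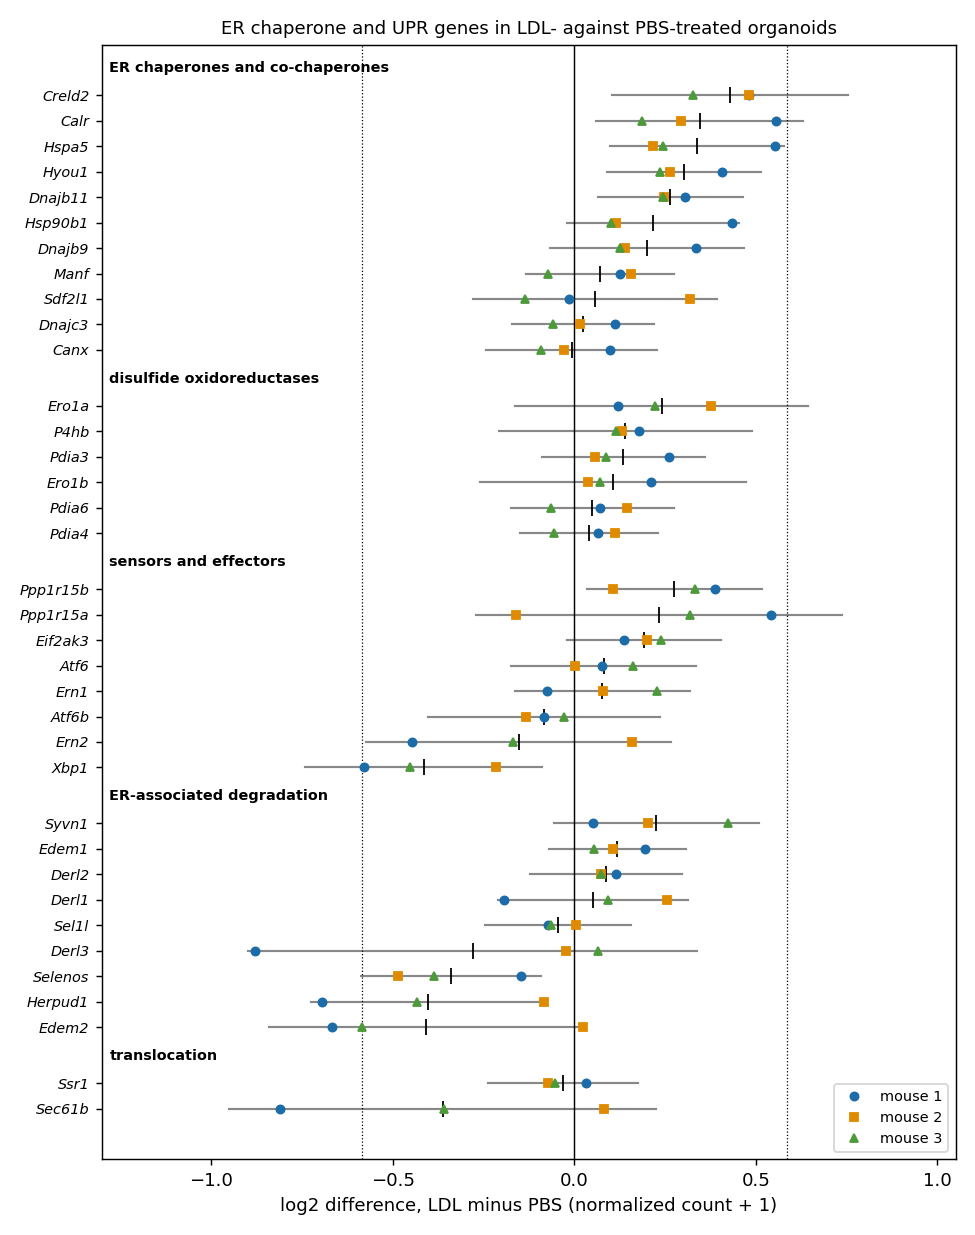
Log2 difference between LDL- and PBS-treated organoids (normalized count + 1) for the 36 genes, grouped by role. Symbols are the 3 mice, the black tick is the limma estimate and the grey bar is its 95% confidence interval without the mouse block. Dotted lines mark 1.5-fold, and all 36 estimates lie between them. Of the 11 chaperone genes, 7 lie to the right of 0 in each mouse (24.2% of all genes). *Xbp1*, *Herpud1* and *Selenos* lie to the left in each mouse (26.8% of all genes).

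The module spans genes of very different abundance. Per kilobase of transcript, PBS-treated organoids held the most RNA for the lectin chaperone *Calr*, at a normalized count per kb of 8430 ± 1063 (SD, n = 3), followed by the disulfide isomerase *P4hb* at 6683 ± 980.1 (SD, n = 3) and the membrane-bound lectin chaperone *Canx* at 4464 ± 278 (SD, n = 3). *Calr* and *P4hb* overlapped within their SDs. *Hsp90b1*, *Pdia3* and *Hspa5* came next, at 3952, 2530 and 1999 per kb. The sensor genes stood far lower, with 219 per kb for *Atf6*, 190 for *Ern2*, 181 for *Ern1* and 111 for *Eif2ak3*. *Derl3* was lowest at 32.6 ± 3.16 (SD, n = 3). *Xbp1* was the most abundant gene of the signaling branch, at 1715 per kb with PBS and 1301 per kb with LDL.

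**Figure D2:**
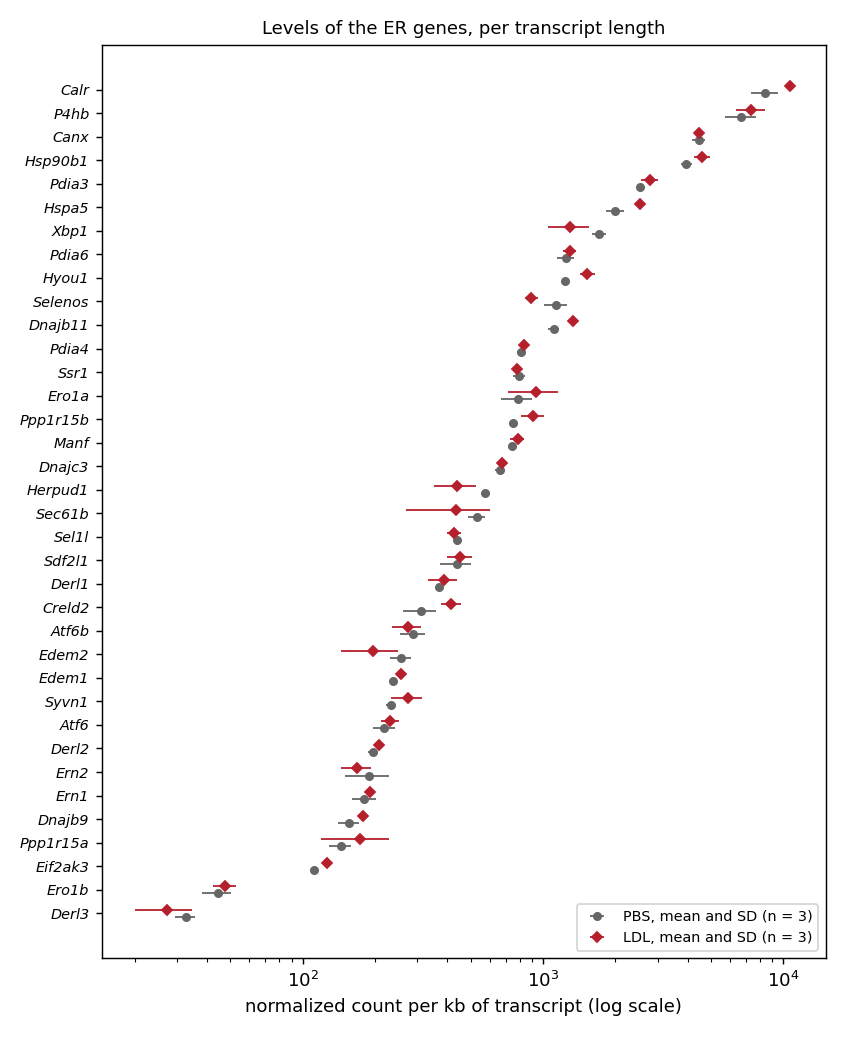
Normalized count per kb of canonical transcript on a log axis for the 36 genes, as mean and SD of 3 PBS-treated (circles) and 3 LDL-treated (diamonds) libraries. Levels run from 32.6 for *Derl3* to 8430 for *Calr* with PBS, and the treatments differ far less than the genes do.

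By role, the median log2 fold change was 0.22 over the 11 chaperones, 0.12 over the 6 oxidoreductases, 0.079 over the 8 sensors and effectors, -0.044 over the 9 degradation genes and -0.20 over the 2 translocation genes. Of the 11 chaperones, 7 had all LDL values above all PBS values (11.9% of all genes), and *Canx*, *Dnajc3*, *Manf* and *Sdf2l1* overlapped. *Hspa5*, which encodes BiP, the central Hsp70 chaperone of the ER and the protein that holds the stress sensors inactive, lies on chromosome 2 of GRCm39 (34661982 to 34668880). Its normalized counts were 8900.4, 10290.2 and 10506 in PBS-treated and 13063, 11967 and 12449.7 in LDL-treated organoids of mice 1, 2 and 3. All LDL-treated values were above all PBS-treated values, and the largest step, 1.47-fold, was in mouse 1. Over the groups the fold was 1.26 (95% interval 1.07 to 1.49; adjusted p = 0.136 from limma, and 0.0523 with the mouse block). With DESeq2, *Hspa5* passed at any fold both with the block (adjusted p = 0.0150) and without it (adjusted p = 0.0339), and without it no other member did (1015 of the 18459 genes passed as higher and 541 as lower). *Hspa5* shares 2457 exonic bases with *Rabepk* on the other strand, which had a mean normalized count of 457 against 11196 for *Hspa5* itself.

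Partners of BiP are given next, and differences among them were not tested. *Hyou1*, the nucleotide exchange factor of BiP, had normalized counts of 5554, 5313 and 5678 with PBS and 7363, 6382 and 6691 with LDL. The groups did not overlap, and the log2 fold change was 0.30 ± 0.092 (SE; limma, adjusted p = 0.134, and 0.0381 with the mouse block). *Dnajb11*, a J-domain co-chaperone that hands unfolded clients to BiP, had 2147, 2152 and 2364 with PBS and 2650.4, 2556 and 2799 with LDL. Its within-mouse ratios were 1.23, 1.19 and 1.18, so that the mice were nearly alike, and the adjusted p-value was 0.151 from limma and 0.0437 with the block. *Dnajb9*, another J-domain protein and a repressor of IRE1, also did not overlap between the groups (342, 391 and 418 with PBS and 432, 431 and 456 with LDL), but its adjusted p-value was 0.387 from limma. *Dnajc3*, the third J-domain member, had a log2 fold change of 0.024 and overlapping groups. *Sdf2l1*, which keeps BiP clients soluble together with *Dnajb11*, was at 443 to 571 with PBS and 439 to 557 with LDL.

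*Creld2*, a stress-inducible ER protein with EGF-like domains, had the largest estimate among the chaperone genes. Normalized counts were 400.2, 390.2 and 515 with PBS and 559, 545 and 647 with LDL in mice 1, 2 and 3. The gene was 1.40-fold higher in mouse 1 and mouse 2 and 1.26-fold higher in mouse 3, with a 95% interval for the group difference of 1.07-fold to 1.69-fold. The adjusted p-value was 0.153 from limma and 0.0188 with the mouse block, and *Creld2* was the only member that passed as higher at any fold with the block under upper-quartile scaling. *Manf*, a secreted neurotrophic factor that binds BiP and is often induced beside *Creld2*, had overlapping groups of 1625 to 1720.3 and 1637 to 1875. *Manf* shares 3962 exonic bases with *Rbm15b* on the same strand, so that its reads are counted with less certainty.

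The chaperones outside the BiP cycle include a lectin pair. *Calr*, the soluble partner, had 16851, 19296 and 21716 with PBS and 24766, 23648 and 24718 with LDL, with no overlap. Its fold was 1.27 (95% interval 1.04 to 1.55; adjusted p = 0.180 from limma and 0.0677 with the block), and DESeq2 with the block gave an adjusted p-value of 0.0115. *Canx*, the membrane-bound partner, had 15809, 17834 and 17358 with PBS and 16925, 17506 and 16279 with LDL, and its log2 fold change of -0.0070 changed sign with the scaling. The difference between *Calr* and *Canx* was not tested. Their ratio within a library, which a size factor per library does not alter and which was chosen after the values were seen, was 1.07, 1.08 and 1.25 with PBS and 1.46, 1.35 and 1.52 with LDL. *Hsp90b1*, the Hsp90 of the ER lumen, had 10520.4, 11510.5 and 11523 with PBS and 14219, 12462 and 12371 with LDL. These groups did not overlap either, but the 1.35-fold step of mouse 1 was much larger than the 1.08-fold and 1.07-fold steps of mice 2 and 3 (adjusted p = 0.291 from limma).

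The disulfide oxidoreductases had small estimates, and *Ero1b* was measured at far lower depth than the others. *P4hb*, *Pdia3*, *Pdia4* and *Pdia6* encode isomerases that form and reshuffle disulfide bonds, and their log2 fold changes were 0.14, 0.14, 0.041 and 0.050. All of their 95% intervals lay within 1.5-fold, and the interval of *Pdia4* ran from 0.902-fold to 1.17-fold. *Ero1a*, the oxidase that recharges these isomerases, was higher with LDL in each mouse, by 1.09-fold, 1.30-fold and 1.17-fold. Its 95% interval, 0.893-fold to 1.56-fold, passed 1.5-fold, and limma gave an adjusted p-value of 0.502, or 0.0853 with the block. Its paralog *Ero1b* was about an order of magnitude less abundant per kb, at 44.3 against 785, and had a log2 fold change of 0.11.

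**Figure D3:**
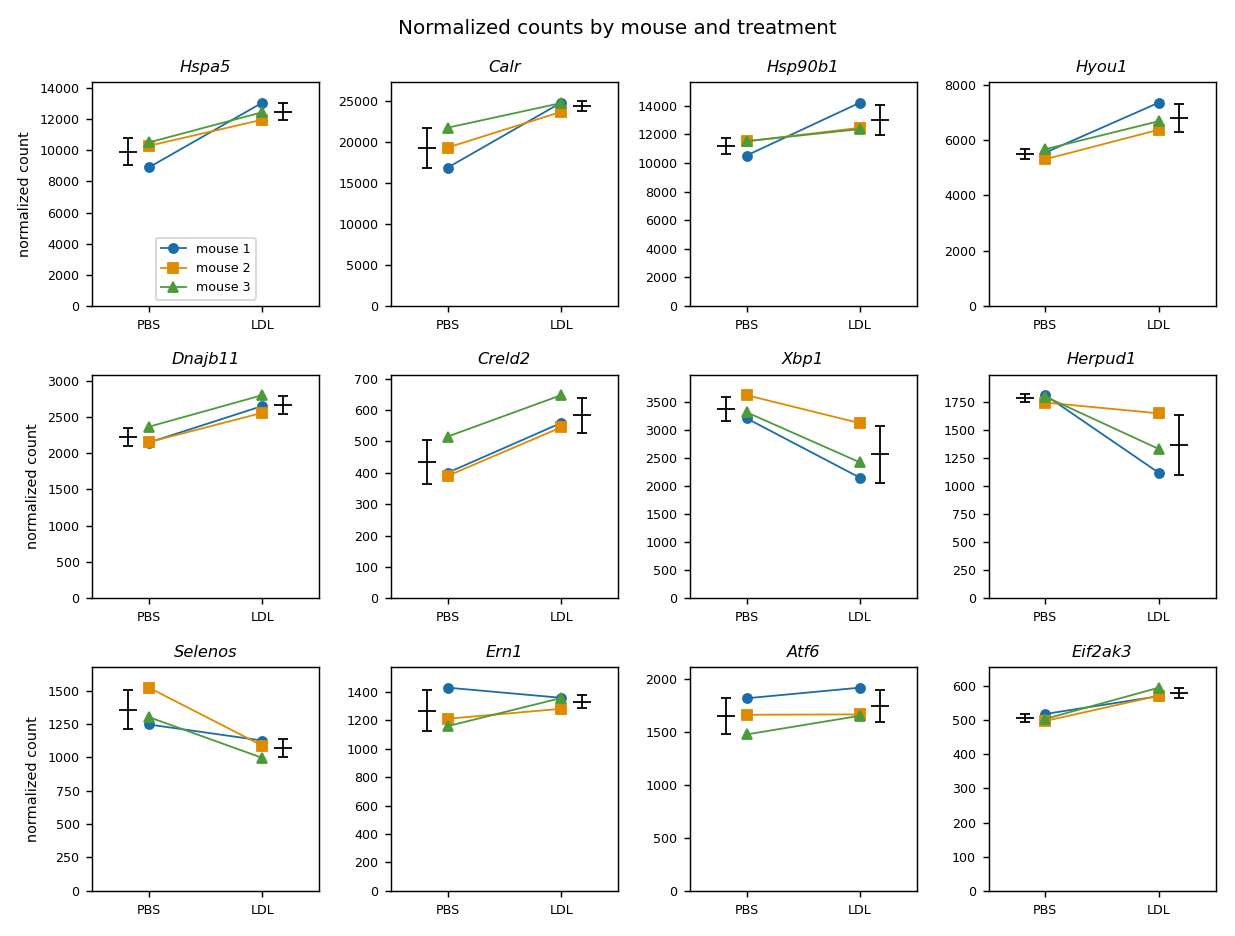
Normalized counts of 12 members in PBS- and LDL-treated organoids, on axes that start at 0. Lines join the 2 cultures of a mouse, and the black marks are the group mean and SD (n = 3); *Hspa5*, *Calr*, *Hyou1*, *Dnajb11* and *Creld2* slope up in every mouse, *Xbp1*, *Herpud1* and *Selenos* slope down in every mouse, and the sensor genes *Ern1* and *Atf6* overlap between treatments.

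Of the sensor genes, none differed by more than a small amount. *Ern1*, the ubiquitous IRE1, had 1430.1, 1212 and 1159 with PBS and 1359, 1281 and 1357 with LDL in mice 1, 2 and 3, lower with LDL in mouse 1 and higher in the others. *Ern2*, the IRE1 paralog of mucus-producing epithelia, had 595, 421 and 642 with PBS and 437, 470.2 and 571 with LDL. The groups overlapped for both genes, with a 95% interval of 0.894-fold to 1.25-fold for *Ern1* and a log2 fold change of -0.15 ± 0.18 (SE) for *Ern2*. *Atf6* had 1818, 1663 and 1477 with PBS and 1919, 1666 and 1653 with LDL, and its relative *Atf6b* had 849, 669 and 747 with PBS and 801, 609 and 732 with LDL. *Atf6* was higher with LDL and *Atf6b* lower in each mouse, by margins that left both groups overlapping. *Eif2ak3*, which encodes PERK, had tightly grouped counts of 518, 497 and 503 with PBS and 569.6, 571 and 595 with LDL. They did not overlap, and the fold was 1.14 (95% interval 0.987 to 1.32; adjusted p = 0.294 from limma and 0.186 with the block).

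*Xbp1*, the transcription factor gene downstream of IRE1 (chromosome 11, 5470606 to 5483027), had a lower mean with LDL, whereas that of *Hspa5* was higher. Normalized counts were 3204, 3616 and 3312 in PBS-treated and 2147, 3117 and 2419.9 in LDL-treated organoids of mice 1, 2 and 3. Every LDL-treated value was below every PBS-treated value, and the ratio was 0.670 in mouse 1, 0.862 in mouse 2 and 0.731 in mouse 3. Over the groups the log2 fold change was -0.41 ± 0.14 (SE; limma, adjusted p = 0.163, and 0.0192 with the mouse block). The ratio of *Hspa5* to *Xbp1* within a library, chosen after the values were seen and given without a test, was 2.78, 2.85 and 3.17 with PBS and 6.09, 3.84 and 5.14 with LDL. *Xbp1* shares 1526 exonic bases with *Ccdc117* on the other strand, at a mean normalized count of 529 against 2969 for *Xbp1*.

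The phosphatase subunits that reverse the PERK signal had higher means with LDL. *Ppp1r15b*, the constitutive subunit, had 4323, 4180.2 and 4116 with PBS and 5657, 4504 and 5183 with LDL, without overlap (fold 1.21, 95% interval 1.03 to 1.43; adjusted p = 0.197 from limma and 0.0642 with the block). *Ppp1r15a*, the stress-induced subunit, had 374, 328 and 305 with PBS and 544, 294 and 381 with LDL, and it was lower with LDL in mouse 2.

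The degradation machinery was split. *Herpud1*, a scaffold of the ubiquitin ligase complex on the ER membrane, had 1812, 1746 and 1798 with PBS and 1119.7, 1649.7 and 1332 with LDL. The PBS values were nearly equal, the LDL values were all lower, and the within-mouse ratio ran from 0.618 in mouse 1 to 0.945 in mouse 2 (adjusted p = 0.168 from limma and 0.0527 with the block). DESeq2 with the block gave 0.0347. *Selenos*, a selenoprotein that links the complex to the extraction ATPase, had 1246, 1522 and 1302 with PBS and 1126, 1088 and 996 with LDL. For this gene mouse 2 had the lowest ratio, 0.715, and the adjusted p-value was 0.144 from limma and 0.0415 with the block. *Edem2*, which trims mannose from misfolded glycoproteins, had 812, 850.0 and 978 with PBS and 511, 864 and 652 with LDL. The ratio was 0.630 in mouse 1, 1.02 in mouse 2 and 0.667 in mouse 3, and the adjusted p-value was 0.276 from limma. Once the LDL-treated library of mouse 2 was left out, *Edem2* and *Sec61b* were called lower, as were 6.13% of all genes.

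The ligase itself and its partners did not follow *Herpud1*. *Syvn1*, the ubiquitin ligase, had 821, 765 and 829.6 with PBS and 851, 881 and 1113 with LDL, all higher (adjusted p = 0.355 from limma), and *Sel1l*, its adaptor, had a log2 fold change of -0.044 with a 95% interval of 0.844-fold to 1.11-fold. *Edem1*, a relative of *Edem2*, had 1417, 1415 and 1430.5 with PBS and 1621, 1524 and 1486 with LDL, without overlap, at a fold of 1.09 (adjusted p = 0.477 from limma). *Derl1* and *Derl2*, channel proteins for retrotranslocation, had log2 fold changes of 0.052 and 0.088. *Derl3*, the family member of secretory cells, had 48.0, 39.8 and 42.3 with PBS and 25.6, 39.1 and 44.3 with LDL, low in the LDL-treated library of mouse 1 alone.

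Both translocation members had overlapping groups, and each was lower with LDL in 2 mice and higher in 1. *Sec61b*, a small subunit of the Sec61 channel, had 599, 706 and 661 with PBS and 342, 748 and 515 with LDL, so that its ratio ran from 0.570 in mouse 1 to 1.06 in mouse 2. *Ssr1*, of the translocon-associated protein complex, had 7106, 7904 and 7278 with PBS and 7274, 7524 and 7021 with LDL, a log2 fold change of -0.030.

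Members with lower means differed in the order of the mice. In *Xbp1*, *Herpud1*, *Edem2* and *Sec61b* the within-mouse ratio was lowest in mouse 1, intermediate in mouse 3 and highest in mouse 2. In *Selenos* it was highest in mouse 1 and lowest in mouse 2 (0.903, 0.715 and 0.765), and in *Derl3* it was lowest in mouse 1, at 0.534, and highest in mouse 3. Summed normalized counts of 7 fetal-like epithelial markers, a list that includes *Clu*, ran in the reverse order of the *Xbp1* ratio under both treatments. With LDL they were 20149 in mouse 1, 15762 in mouse 3 and 4202 in mouse 2. With PBS they were 2818 in mouse 1, 2629 in mouse 3 and 1460.1 in mouse 2. With the mouse block, limma called 6 of the 6 tested genes of that list higher (5.68% of all genes). Mouse 1 also had the LDL-treated library with the lowest share of protein-coding reads. The part of either in these ratios was not tested. Without the LDL-treated library of mouse 1, the log2 fold changes of *Xbp1* and *Herpud1* were -0.30 and -0.27, that of *Edem2* was -0.22 and that of *Sec61b* was -0.075. Those of the chaperone genes *Hspa5*, *Calr*, *Creld2* and *Hsp90b1* were then 0.31, 0.33, 0.46 and 0.15.

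Markers of secretory cells are given beside *Xbp1* and *Herpud1*. The sum of 10 goblet markers was 53477 to 58186 with PBS and 30994 to 37521 with LDL. Limma called *Agr2*, *Fcgbp* and *Spink4* of this list lower (0.395% of all genes) and *Clca1* higher (0.878%). The sum of 10 Paneth markers was 19342 to 30179 with PBS and 14674 to 17651 with LDL, and limma called 0 of them in either direction. With the mouse block 4 Paneth markers were called lower (3.46% of all genes) and 2 higher (5.68%). None of these markers was at 0 reads over the libraries. Summed counts overlapped between the treatments for 8 enteroendocrine markers (9866 to 15478 with PBS and 7619.8 to 12063 with LDL), for 8 enterocyte markers (24179 to 52157 and 24092 to 51392, with *Alpi* called higher by limma at a log2 fold change of 2.13), for 7 stem cell markers (40410.3 to 60933 and 37898 to 44868) and for 5 tuft cell markers (242 to 339.9 and 186 to 494). Whether the makeup of the cultures had a part in the values of *Xbp1* and its neighbours was not tested.

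Differences between mice were tested gene by gene. With 3 mice, a gene that is not called may still differ between them. An F-test of the mouse in limma, with treatment in the model, called 0 of the 36 members at an adjusted p-value under 0.05, against 2.18% of all genes, and 7 at an unadjusted p-value under 0.05 (23.9% of all genes). *P4hb* and *Ero1a*, chosen after their values were seen, were highest in mouse 2 under both treatments, whereas *Pdia3* was lowest in mouse 2 under both. *P4hb* had 17247, 22843 and 18852 with PBS and 19506, 25007 and 20407 with LDL in mice 1, 2 and 3, and *Ero1a* had 4059.7 and 5274 in mouse 2 against 3126 to 3649 (adjusted p = 0.154 and 0.0687 from the limma F-test). Without mouse 2 the F-test called 2 members, *Edem2* and *Ppp1r15a*, and 10.7% of all genes.

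Beyond the module, 157 other genes of the ER and its stress signaling were found, in 7 lists, and 153 of them were tested. Their median log2 fold change was -0.024, close to that of all genes. Limma called 1 of them higher and 3 lower (0.878% and 0.395% of all genes), and with the mouse block 2 higher and 5 lower (5.68% and 3.46%). At an unadjusted p-value under 0.05 and any fold, 9 were higher and 16 lower, against 9.96% and 9.73% of all genes. Without mouse 3 and without the block, limma called 0 of the 18469 genes tested, and *Creb3l3*, *Chac1*, *Trib3* and *Agr2* were thus not called; with the block and without mouse 3, *Creb3l3*, *Chac1* and *Trib3* were called and *Agr2* was not. *Creb3l3* was also not called without the PBS-treated library of mouse 1 or mouse 3 or the LDL-treated library of mouse 3, and *Trib3* and *Agr2* were not called without any one of the PBS-treated libraries or the LDL-treated library of mouse 3. Within the list of signaling and stress transcription factors, which had 25 genes, *Creb3l3* was called higher, and *Chac1* and *Trib3* were called lower. In the list of other oxidoreductases, prolyl isomerases and chaperones, 1 of 34 genes tested, *Agr2*, was called lower. Limma without the block called no gene in the lists of translocon and signal peptide processing (25 tested) or oligosaccharyl transfer and glycan processing (21). The same held for ER-associated degradation (28), ER-phagy receptors (8) and ER calcium handling (12).

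*Creb3l3* encodes a membrane-bound transcription factor that is cut by the same proteases as ATF6 and acts in lipid metabolism of liver and gut. Its normalized counts were 304, 429.95 and 310.2 with PBS and 1065, 1742 and 1441 with LDL, with a log2 fold change of 2.01 (limma, adjusted p = 0.00828) and ratios of 3.50, 4.05 and 4.64 in mice 1, 2 and 3. No other of the 153 genes had a larger estimate. *Chac1*, a glutathione-degrading enzyme, and *Trib3*, a pseudokinase, are targets of ATF4, the transcription factor translated when PERK or related kinases act. *Chac1* fell from 325, 355 and 366 to 78.1, 93.7 and 106.2 (adjusted p = 0.00313 from limma) and *Trib3* from 283, 216 and 182 to 48.8, 87.3 and 61.9 (adjusted p = 0.0241 from limma). *Atf4* itself had 5703, 6693 and 6833 with PBS and 4370.1, 5427 and 4839.7 with LDL, without overlap (adjusted p = 0.130 from limma and 0.0144 with the block). *Ddit3*, another target of this branch, had overlapping groups of 184 to 282 and 182 to 260.05. *Atf4* and *Ddit3* were added after their values were seen.

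*Agr2*, the disulfide isomerase needed for mucin folding and also a goblet marker, fell from 3220, 3154 and 3275 to 1676, 2109.8 and 1986 (log2 fold change -0.75; adjusted p = 0.0208 from limma). In limma on all 6 libraries, the mouse block added *Retreg1*, an ER-phagy receptor, and *Creb3l4* as called lower and *Atf3* as called higher. Their log2 fold changes were -0.81, -0.61 and 1.33 (limma with the block, adjusted p = 0.00147, 0.0456 and 0.0377). Without the block, DESeq2 also called *Retreg1* lower (1.89% of all genes) and *Atf3* higher (4.58%). So did limma once the LDL-treated library of mouse 2 was left out (6.13% and 6.44% of all genes). At any fold the block also passed *Atp2a2*, which pumps calcium into the ER, as higher (log2 fold change 0.42; limma, adjusted p = 0.0211), and its paralog *Atp2a3* as lower (log2 fold change -0.37; limma, adjusted p = 0.0221); these were chosen after their values were seen.

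**Figure D4:**
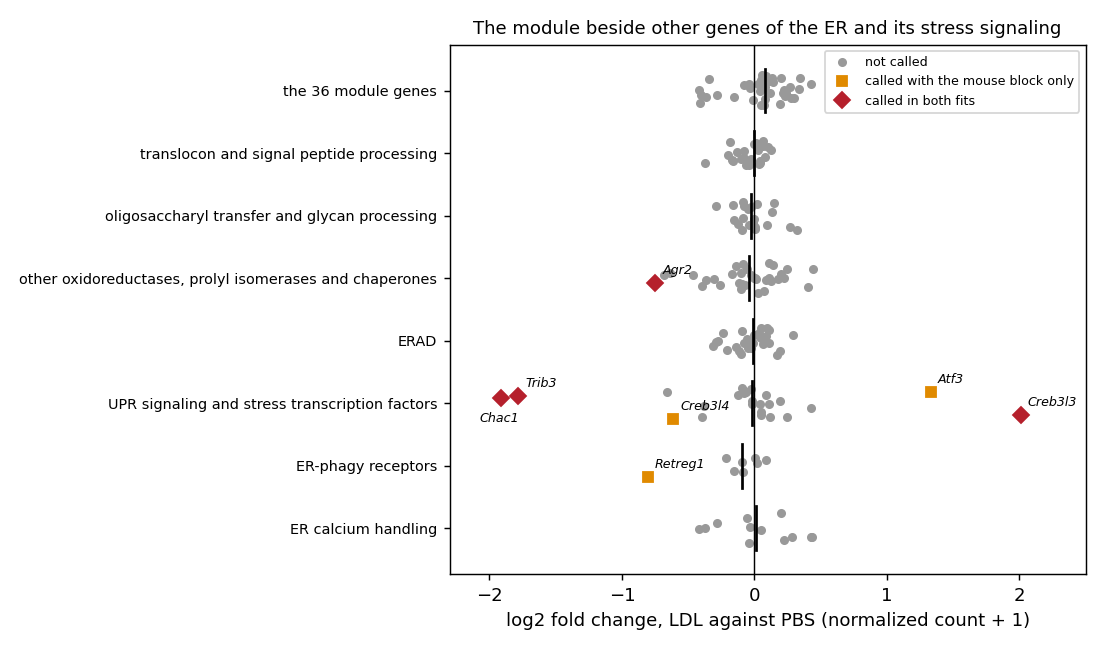
Log2 fold change (normalized count + 1) of each gene tested in the module and in 7 other ER lists, with the median of each list as a black line. Diamonds are genes called by limma with and without the mouse block and squares those called with the block alone; the module and the structural lists stay near 0, and *Creb3l3*, *Chac1* and *Trib3* lie far outside.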

How the data were processed

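The deposited signal values are normalized counts: per the study's methods and the labels, the authors demultiplexed stranded, ribosome-depleted libraries (bcl2fastq 2.20), aligned reads to GRCm39 with STAR, counted them per gene with featureCounts and scaled with DESeq2. The strand setting is not given in the sources used here. Reads were recovered by dividing each value by the worth of 1 read in that library (100% whole within 0.01 read). Identifiers were named from GENCODE M39 (54749 of 55416); 1 listed gene was not matched.

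Normalized counts plus 1 were compared as log2 values with limma 3.58.1 (R 4.3.3; two-sided, trend, Benjamini-Hochberg over 18459 genes with a mean of at least 10). Calls needed an adjusted p-value under 0.05 and a 1.5-fold change. The study names no pairing term, so a blocked fit, with a term for each mouse, served as the alternative. Each replicate number carries 1 animal identifier, and deviations of same-mouse libraries correlated at 0.48, 0.42 and 0.46. edgeR 4.0.16 and DESeq2 1.42.0 were run on the reads. Levels per kb used the canonical transcript. The steps were tested on simulated data. All 36 members were named; values per sample were given for members that did not overlap or were called, for *Ern1*, *Ern2*, *Atf6*, *Eif2ak3*, *Xbp1* and *Hspa5*, and for the 3 most abundant per kb; those of *Atf6b*, *Ppp1r15a*, *Edem2*, *Derl3*, *Sec61b*, *Ssr1* and *Ero1a* were added after their values were seen. Of the other ER genes, those called were named. Members and lists were chosen with earlier results of these data known. With 1 culture per mouse and treatment, the spread between cultures of a mouse was not measured. Figures used matplotlib 3.10.9. The level of 1 gene that bears on the genotype label of mouse 3 is not reported here.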

Additional observations from a re-analysis of the deposited data

How the results depend on the processing

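No member of the module reached a call (adjusted p-value under 0.05 and over 1.5-fold) under the other pseudocounts, filters, scalings or tools, or with the mouse block. Leaving out single libraries gave 0 higher and 0 to 2 lower, the 2 being without the LDL-treated library of mouse 2. At any fold with the block, 3 were higher and 2 lower with limma, 3 and 3 with edgeR, and 4 and 2 with DESeq2; without the block they were 0 and 0 with edgeR and 1 and 0 with DESeq2. Upper-quartile scaling gave 1 and 3, and quantile normalization 5 and 2. Without mouse 1 these counts were 0 and 1, and without mouse 2 they were 8 and 6, with 1 lower over 1.5-fold. The median of the module, 0.079, was 0.030 to 0.098 with 1 library left out, 0.052 with upper-quartile scaling, 0.10 with edgeR and the block, and 0.12 without mouse 3. The F-test between mice called 2 members without mouse 2 (10.7% of all genes).

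Of the other ER genes, 1 higher and 3 lower became 2 and 5 with the block (limma, edgeR and DESeq2), 8 and 14 with the block at any fold, 2 higher with DESeq2 without the block, 2 and 6 at an unadjusted p-value, and 0 and 0 without mouse 3; leaving out 1 library gave 0 to 2 higher and 1 to 6 lower. Of 647 values for single members, 626 kept their direction. The signs that turned belonged to 7 members with estimates near 0: *Canx* (0.012 with quantile normalization, 0.013 and 0.014 with edgeR without and with the block, 0.0086 and 0.0096 with DESeq2, 0.036 without mouse 3), *Ssr1* (0.017 with quantile normalization) and *Dnajc3* (-0.0033 with upper-quartile scaling), and, with single libraries left out, *Canx* (-0.058 to 0.029), *Ssr1* (-0.061 to 0.016), *Dnajc3* (-0.011 to 0.059), *Pdia6* (-0.0047 to 0.11), *Sdf2l1* (-0.017 to 0.18), *Derl1* (-0.044 to 0.15) and *Atf6b* (-0.17 to 0.028). The causes were not tested. The lowest member, *Derl3*, had 21 reads in its shallowest library and an SE of 0.27, against a median SE of 0.11 over the module.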
